A study of Mus musculus with 9 samples.

Results

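Long noncoding RNAs of the heart and of its scar were examined by gene name, on whole-heart arrays of mice in chronic heart failure. Of 10 RNAs listed (Malat1, Neat1, H19, Meg3, Rian, Mirg, Dnm3os, Gas5, Kcnq1ot1 and Snhg1), 3 had a probe set with 1 gene symbol and could be described: Malat1, Neat1 and Kcnq1ot1, among 30142 genes in all. The other 7 each lay on a probe set that the platform table shares between 2 and 11 symbols and so no value is given for them. The rule takes them by name and uses no measured difference.

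All hearts came from immunodeficient nude mice whose left anterior descending coronary artery had been tied for good. Mice with an ejection fraction under 50% were treated 3 weeks after the infarct, and hearts were taken 6 weeks after treatment. The groups were 3 arrays of hearts given vesicles secreted in 48 hours by 500000 cardiovascular progenitor cells, 3 of hearts given 500000 such cells, 2 of hearts given alpha-MEM medium, called control, and 1 sham heart punctured at 3 sites with nothing injected. The sham heart is also labelled as a heart in chronic failure, so none of the groups is a healthy heart. The titles name a pair of experiments. Array 1 of every group belongs to experiment 9, and arrays 2 and 3 of the injected groups belong to experiment 1. The titles also carry a label VTS, not explained there, which is VTS3 for every array 1, VTS1 for every array 2 and VTS2 for vesicle array 3 and cell array 3. VTS2 has no control, so those 2 arrays are set against the VTS1 control of their experiment. The labels give no age or sex and no species or line for the cells, nor do they say that different arrays stand for different animals. The p-values then measure no more than how far these arrays spread, which may be technical.

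Malat1 and Neat1 are nuclear RNAs made from neighbouring genes. Malat1 gathers in nuclear speckles, which store splicing factors, and Neat1 is the scaffold of paraspeckles, bodies that hold RNA-binding proteins such as Nono and Sfpq. Neat1 is made as a short and a long form, and which of them the probe set reads was not given in the sources used here. Kcnq1ot1 is transcribed antisense from within the potassium channel gene Kcnq1, from the paternal copy only, and silences neighbouring imprinted genes such as the cell cycle inhibitor Cdkn1c.

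The windows around the starts of Malat1 and Kcnq1ot1 are shown, because the promoter sequences used here held none for Neat1. Each runs 5′ to 3′ on the gene's own strand from 250 bases before the start to 50 after it, from RefSeq on GRCm38.p6. Malat1 lies at chr19:5802623-5802922 and Kcnq1ot1 at chr7:143296498-143296797, both on the minus strand. Capitals mark matches to CCAAT.
Malat1: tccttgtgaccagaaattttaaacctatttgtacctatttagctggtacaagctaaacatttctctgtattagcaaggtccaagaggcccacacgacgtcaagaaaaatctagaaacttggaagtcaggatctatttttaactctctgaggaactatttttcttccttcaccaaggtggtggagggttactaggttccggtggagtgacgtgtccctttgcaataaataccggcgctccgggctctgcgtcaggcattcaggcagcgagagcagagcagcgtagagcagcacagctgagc
Kcnq1ot1: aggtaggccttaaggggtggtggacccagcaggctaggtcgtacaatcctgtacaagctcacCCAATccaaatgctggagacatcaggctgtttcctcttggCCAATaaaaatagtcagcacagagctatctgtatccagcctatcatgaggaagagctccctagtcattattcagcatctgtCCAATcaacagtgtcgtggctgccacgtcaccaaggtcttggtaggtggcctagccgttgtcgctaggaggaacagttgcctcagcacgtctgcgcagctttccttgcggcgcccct

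The Kcnq1ot1 window holds 3 matches to CCAAT, all on the strand of the gene, with first bases at −188, −148 and −67 from the start. At least 3 matches on either strand occur in 3.37% of 32851 mouse windows of this length, and at least 1 in 37.4%. The Malat1 window holds none. Neither window holds TATAAA (13.6% of all windows), CACGTG (7.2%) or GGGCGG (35.7%) on either strand. The G and C content was 47.0% for Malat1 and 53.3% for Kcnq1ot1. These matches describe letters only, and the arrays did not measure binding.

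The heart muscle markers fixed for the check of the tissue lay above the negative controls in 8 of 8 cases. A signal counts here as above the negative controls when it exceeds their 95th percentile, a log2 value of 7.18 to 7.28 depending on the array, and between 6378 and 6790 genes did so on each array. Vesicle array 3 stood apart by lung genes: over 7 lung markers its mean log2 deviation was 1.92, against −0.32 to 0.07 on the others, with Sftpc, a surfactant protein, at 9.75 against 4.28 to 6.35. Cell array 3 alone held the highest value for 26.0% of the 6724 genes above the negative controls, and control array 2 alone the lowest value for 23.3%.

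Malat1 was well above the negative controls on 9 of 9 arrays and varied little. In experiment 9 its log2 values were 12.20 in the sham heart, 12.14 in control, 12.15 after vesicles and 12.17 after cells. In experiment 1 they were 12.12 in control, 12.15 and 12.14 after vesicles, and 12.13 and 12.08 after cells. The sham array was highest and cell array 3 lowest, with a distance of 1.09-fold between them, and the injected groups overlapped. The mean was 12.13 ± 0.016 in control (SD, n = 2), 12.15 ± 0.0040 after vesicles (SD, n = 3) and 12.13 ± 0.047 after cells (SD, n = 3). Its SD over the 9 arrays, 0.033, was smaller than the median SD of 0.069 over the 6724 genes above the negative controls. In whole hearts, fewer cells that make an RNA and less RNA per cell cannot be told apart.

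Neat1 was also above the negative controls on 9 of 9 arrays but varied more. Its log2 values in experiment 9 were 10.28 in the sham heart, 10.25 in control, 10.28 after vesicles and 10.33 after cells. In experiment 1 they were 10.27 in control, 10.22 and 10.37 after vesicles, and 10.18 and 9.94 after cells. The cell arrays thus spanned nearly the whole range, with cell array 1 the second highest of all and cell arrays 2 and 3 the lowest. Cell array 3 lay 0.24 below the next array, and vesicle array 3, the one with lung genes, was the highest. Group means were 10.26 ± 0.018 in control (SD, n = 2), 10.29 ± 0.075 after vesicles (SD, n = 3) and 10.15 ± 0.20 after cells (SD, n = 3). The SD over 9 arrays was 0.12, larger than in 81.6% of the genes above the negative controls.

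Kcnq1ot1 was not above the negative controls on any of the 9 arrays. Its log2 value was the very same, 5.45, on 5 arrays: the sham array, cell arrays 1 and 2 and vesicle arrays 2 and 3. Vesicle array 1 also stood at 5.45, cell array 3 at 5.41, control array 1 at 5.53 and control array 2 at 5.37. The 2 control arrays were thus the highest and the lowest of all 9, and every treated array lay between them. Between 69.2% and 71.7% of the negative control probe sets lay below Kcnq1ot1 on each array, so its differences below are those of a signal at background, and no fold is given. Across all genes 30.0% had the same value on 5 or more arrays.

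**Figure D1:**
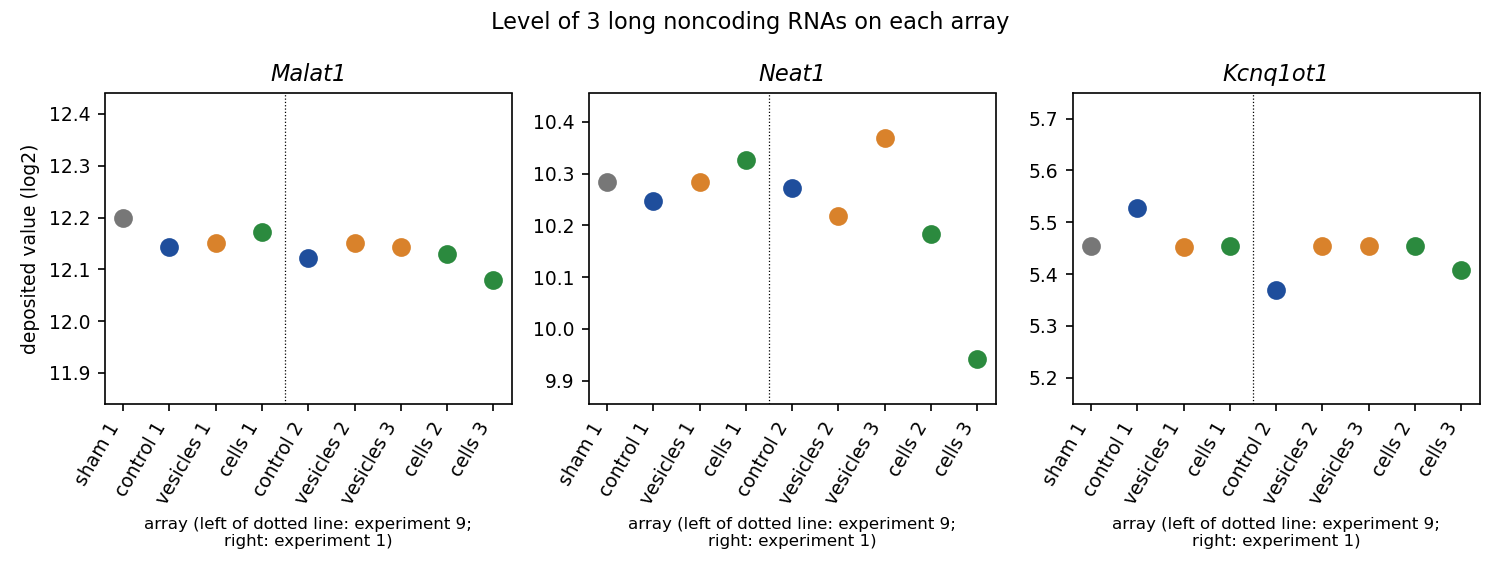
Deposited log2 values (vertical axes, each spanning 0.6 but at a different level) of Malat1, Neat1 and Kcnq1ot1 on the 9 arrays (horizontal axis), 1 point per array in grey for sham, blue for control, orange for vesicles and green for cells. Cell array 3 is lowest for Malat1 (12.08) and Neat1 (9.94), and the 2 control arrays bound all others for Kcnq1ot1 (5.37 and 5.53).

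Vesicles were compared with control to ask what they had left in the heart. None of the 3 RNAs passed the test. The fitted log2 difference was 0.021 ± 0.025 (SE) for Malat1 and 0.044 ± 0.11 for Neat1, with limma adjusted p of 0.843 and 0.954. As folds these were 1.01 with a 95% interval of 0.970 to 1.06, and 1.03 with one of 0.848 to 1.25. Malat1 was higher than the control of the same experiment on 3 of 3 vesicle arrays, by 0.0070, 0.030 and 0.023, beside an SE of 0.025 for the fitted difference. Vesicle arrays 2 and 3 share control array 2, which alone held the lowest value for 23.3% of the 6724 genes above the negative controls. How many of all genes lay on the same side of control on all 3 vesicle arrays was not counted. Neat1 was 0.036 from the control of the same experiment on vesicle array 1, −0.054 on vesicle array 2 and 0.095 on vesicle array 3. Without vesicle array 3, where the lung markers were high, the Neat1 difference was −0.0090. Kcnq1ot1 stood at 0.014 ± 0.041 (adjusted p = 0.970). Over all genes limma called 0 of 30142, or 0%, in this comparison, while 1942, or 6.44%, had an unadjusted p under 0.05, and of the 3 RNAs 0 did. Least squares without moderation called 4 genes and leaving out control array 1 called 823, with 0 of the 3 RNAs among them in either case.

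Cells were compared with control in the same way, and again none of the 3 RNAs passed. Neat1 had the widest gap, at −0.095 ± 0.11 or 0.936-fold with a 95% interval of 0.770 to 1.14 (limma adjusted p = 0.854). This value rested on cell array 3: the distance to the control of the same experiment was 0.079 on cell array 1, −0.088 on cell array 2 and −0.331 on cell array 3, and the fitted difference without cell array 3 was −0.0048. Without control array 2 it was −0.013, in a fit that lends the 1 control array left the spread of the treated arrays. Malat1 stood at 0.00058 ± 0.025, with a 95% interval of 0.957-fold to 1.05-fold, and Kcnq1ot1 at −0.0015 ± 0.041. Limma called 0 genes, or 0%, here, with 2029 genes, or 6.73%, at an unadjusted p under 0.05 and 0 of the 3 RNAs among them. With the sham array among the controls 1 gene was called, and 901 without control array 1, with 0 of the 3 RNAs in either case.

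Between vesicles and cells Neat1 had the widest gap of these 3 RNAs in any fitted comparison, 0.14 ± 0.098 higher after vesicles, or 1.10-fold with an interval of 0.926 to 1.31 (limma adjusted p = 0.920). The direction differed between experiments, at −0.043 in experiment 9 and 0.23 in experiment 1. By VTS label it was −0.043 in VTS3, 0.035 in VTS1 and 0.427 in VTS2, the pair of vesicle array 3 and cell array 3. The fitted difference was 0.040 without cell array 3 and 0.081 without vesicle array 3, but 0.233 without cell array 1, and 0.139 to 0.189 without any other array. With the VTS label as the block in place of the experiment it was 0.139 ± 0.105 (limma adjusted p = 0.920). Malat1 stood at 0.021 ± 0.023, and at 0.00034 without cell array 3, and Kcnq1ot1 at 0.015 ± 0.036, with adjusted p of 0.921 and 0.982. Limma called 0 genes, or 0%, against 1309, or 4.34%, at an unadjusted p under 0.05, and 0 of the 3 RNAs were in that number. Over these 3 comparisons the intervals ran from 0.957-fold to 1.06-fold for Malat1 and from 0.770-fold to 1.31-fold for Neat1. Like the p-values, they measure the spread of these arrays, which may be technical. They therefore do not bound an effect across animals.

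Experiment 1 was set against experiment 9 because the titles name both. All 3 RNAs were lower in experiment 1, with differences of −0.032 ± 0.020 for Malat1, −0.085 ± 0.089 for Neat1 and −0.051 ± 0.033 for Kcnq1ot1, and none passed (limma adjusted p 0.517, 0.668 and 0.522). The Malat1 difference turned to 0.0080 after quantile normalization, and that of Neat1 to 0.016 without cell array 1. Limma called 0 genes, or 0%, between the experiments, with 3845, or 12.8%, at an unadjusted p under 0.05. The sham array, alone in its group, was only set beside control array 1, with no test. Sham minus control was 0.055 for Malat1, 0.037 for Neat1 and −0.073 for Kcnq1ot1, and of all genes 58.8%, 49.1% and 66.8% had a smaller gap between these 2 arrays.

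**Figure D2:**
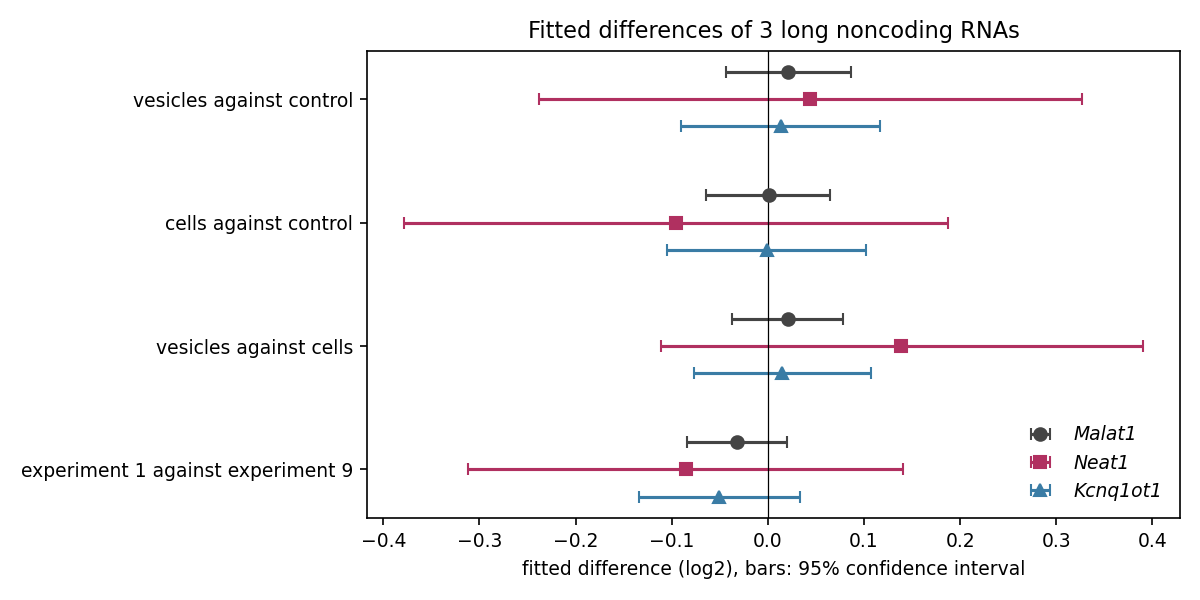
Fitted log2 differences (horizontal axis) of Malat1, Neat1 and Kcnq1ot1 in 4 comparisons (vertical axis), with 95% confidence intervals as bars, from 8 arrays. Every interval takes in 0, and those of Neat1 are the widest, from −0.38 to 0.19 for cells against control.

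Malat1 and Neat1 follow each other in the RefSeq order of measured genes on chromosome 19, between Ltbp3, which encodes a protein that binds latent TGF-beta, and Frmd8. After subtraction of each experiment's mean, the r between Malat1 and Neat1 was 0.71 over the 9 arrays, which share 1 normalization. It was 0.22 without cell array 3, the lowest array for both. With the flanking genes the r was lower, at −0.02 for Malat1 with Ltbp3 and 0.11 for Neat1 with Frmd8, and Frmd8 lay under the negative controls. Ehbp1l1, the next gene beyond Ltbp3 and above the negative controls, had an r of −0.73 with Malat1 and −0.69 with Neat1. Only the r of Malat1 with Neat1 was recomputed without cell array 3. Kcnq1ot1 follows Kcnq1, with 4933417O13Rik and then Cdkn1c on its other side. Kcnq1 was above the negative controls on 0 of 9 arrays and Cdkn1c on 4 of 9. The r of Kcnq1ot1 was 0.0 with Kcnq1 and −0.71 with Cdkn1c, and the ties of Kcnq1ot1 leave few distinct values behind either.

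The genes with the most alike pattern were sought by the highest such r among 5077 named genes above the negative controls. For Malat1 they were Zc2hc1a (r = 0.97) and Tcea1, a transcription elongation factor (r = 0.95). Tcea1 stood at 8.15 in the sham heart and 7.97 on cell array 3, its highest and lowest values, as for Malat1. For Neat1 they were Leng8 (r = 0.94) and Srsf5, an SR splicing factor (r = 0.90). Srsf5 read 8.53 on cell array 3 against 9.05 to 9.28 on the others. For Kcnq1ot1 they were Naa30, a subunit of an N-terminal acetyltransferase (r = 0.98), and Chm, a Rab escort protein (r = 0.94). Naa30 read 7.93 on control array 1 and 7.84 on control array 2, between 7.88 and 7.89 on the other arrays. Each was picked as the highest of many, so the r describes these arrays and no test is given. None of these r values was recomputed without cell array 3.

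**Figure D3:**
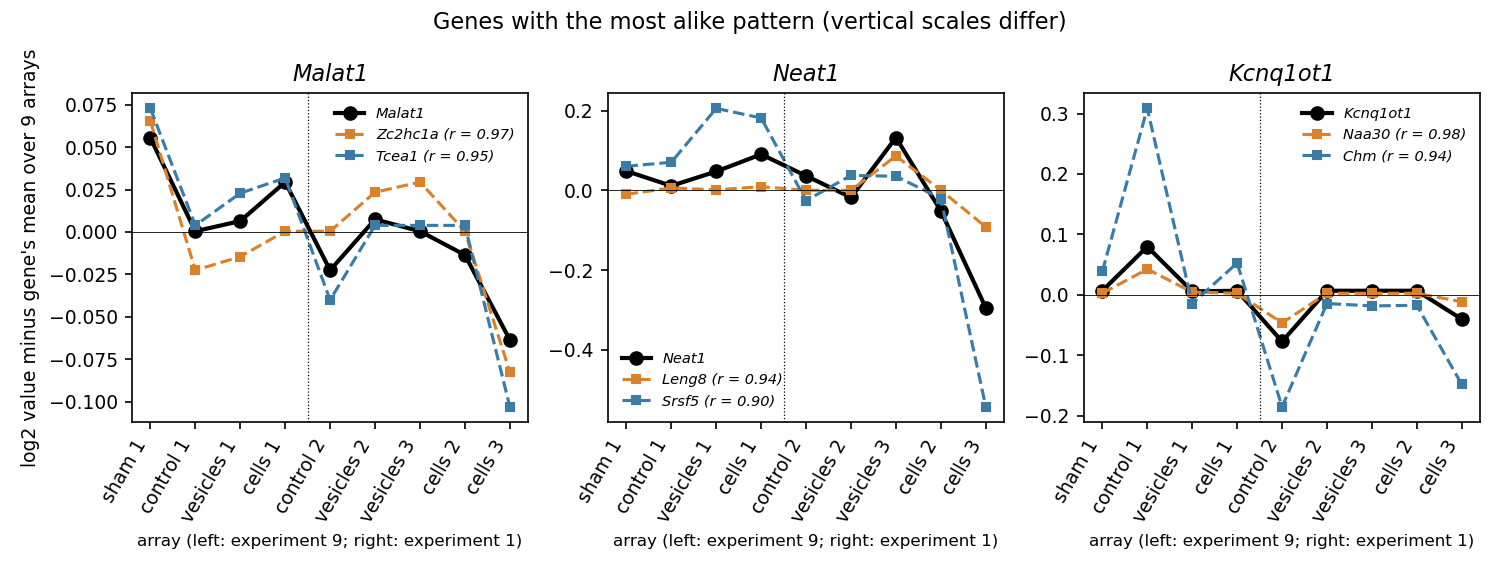
Log2 value minus the gene's mean over 9 arrays (vertical axes, of differing scale) by array (horizontal axis) for each long noncoding RNA (black) and the 2 genes with the highest r to it (colours, r in the legend). The Neat1 panel drops on cell array 3, where Srsf5 read 8.53, and the Kcnq1ot1 panel has its extremes on the 2 control arrays.

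Genes of the proteins that fill speckles and paraspeckles were described next to Malat1 and Neat1. Of 19 listed, 14 were measured by a probe set of their own, and 12 of these lay above the negative controls. None passed limma's test in any of the 3 treatment comparisons. After vesicles 11 of the 12 above the negative controls were higher, with a median difference of 0.066 from control. All genes above the negative controls had a median of 0.0095. How many of those were higher was not counted, here or after cells. Of all 14, 13 were higher than control with a median difference of 0.066, beside 38.5% of all genes and a median of −0.012. The set also differed between experiments: 13 of the 14 were lower in experiment 1, with a median of −0.052, while 58.2% of all genes were higher. Vesicle array 1, of experiment 9, alone held the highest value of 9 of the 14, beside 16.9% of the 6724 genes above the negative controls. That median was 0.029 without control array 2, which held the lowest value of 5 of the 14 genes, and without control array 1 it was 0.084 and 2 of the 14 passed, in a fit that called 2.73% of all genes. The genes of this list with the lowest unadjusted p after vesicles were the SR splicing factors Srsf2 (0.059 ± 0.017) and Srsf3 (0.17 ± 0.060) and the speckle protein Srrm2 (0.077 ± 0.026). Each had a limma adjusted p of 0.675. Nono, the paraspeckle protein, lay between 8.52 and 8.59 on all 9 arrays. Sfpq had no probe set with 1 symbol.

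After cells 9 of the 12 above the negative controls were higher, with a median of 0.012. That was less than the median of 0.0197 over all genes above the negative controls. Of all 14, 11 were higher, with a median of 0.018, beside 43.2% of all genes and a median of −0.0064. This direction did not hold: 5 of 14 were higher after quantile normalization with a median of −0.0080, the median was −0.0020 without cell array 2, and 1 of the 14 passed without control array 1, in a fit that called 2.99% of all genes. Srsf2 had the lowest unadjusted p, at −0.10 ± 0.017 (limma adjusted p = 0.682), and Srsf3 stood at 0.20 ± 0.060. In experiment 9 Srsf2 read 9.20 in control, 9.28 after vesicles and 9.09 after cells, and in experiment 1 9.03 in control, 9.09 and 9.08 after vesicles and 8.93 and 8.94 after cells. Within each experiment the vesicle arrays thus lay above control and the cell arrays below it. Srsf2 was picked for its low p on these same arrays, and how many of all genes show this order was not counted. Its difference between experiments was −0.171 ± 0.014, lower in experiment 1 (limma adjusted p = 0.212). Between vesicles and cells Srsf2 differed by 0.16 ± 0.015, at an unadjusted p of 9.95e-05 and an adjusted p of 0.823, so it did not pass. Cell array 3 held the lowest value of 6 of the 14 genes (Ddx17, Hnrnpk, Son, Srsf1, Srsf5 and Tardbp), beside 11.7% of the 6724 genes above the negative controls. The part of cell array 3 in these values was not tested beyond leaving it out.

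**Figure D4:**
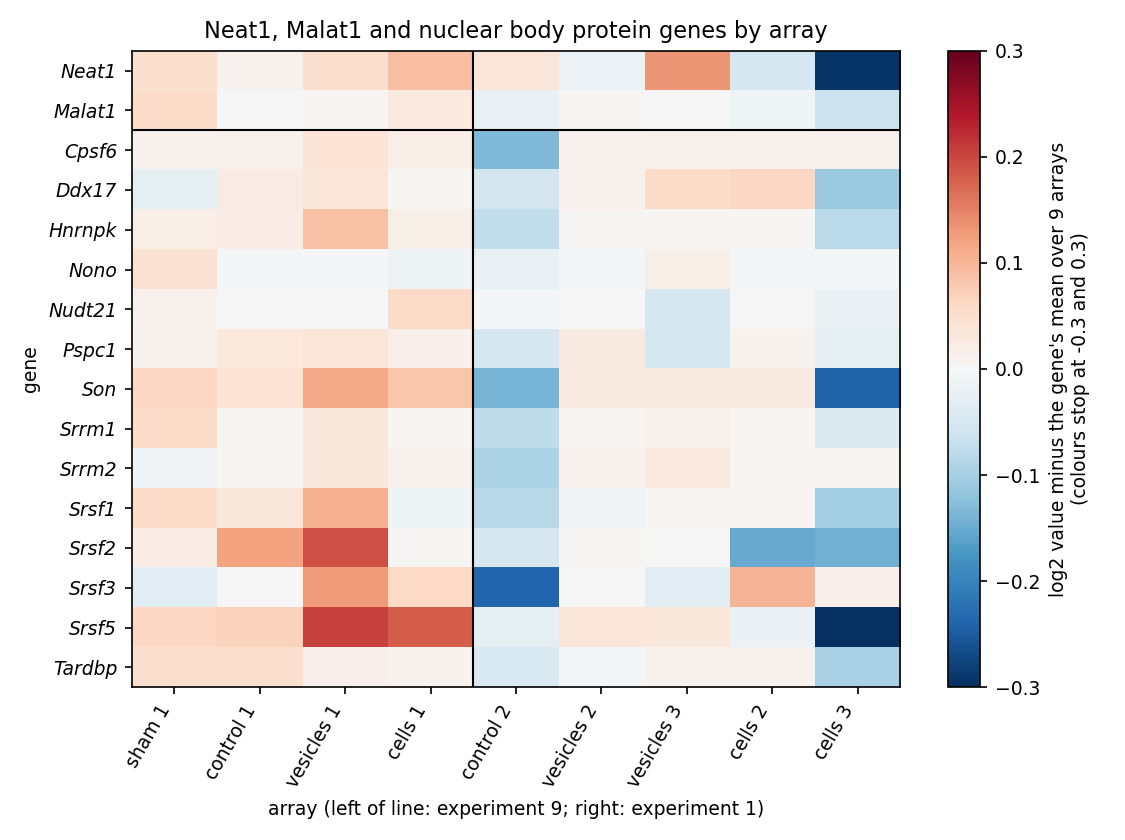
Log2 value minus the gene's mean over 9 arrays (colour, red higher and blue lower, ending at −0.3 and 0.3) for Neat1, Malat1 and 14 genes of speckle and paraspeckle proteins (rows) on each array (columns). The column of cell array 3 holds the lowest value of Neat1, Malat1 and 6 of the 14 genes.

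The genes of the H19-Igf2 and Kcnq1ot1 imprinted domains gave signals mostly at background. Of 16 listed, 14 were measured, and 2 (Cd81 and Nap1l4) lay above the negative controls. None passed. After vesicles 3 of 14 were higher with a median of −0.020, and after cells also 3 of 14 with a median of −0.022. Over all genes 38.5% and 43.2% were higher, with medians of −0.012 and −0.0064. Without control array 2, 7 of 14 were higher after vesicles, but 4 of 14 after cells. After quantile normalization 4 and 5 of 14 were higher. With arrays centred on their median 8 and 9 of 14 were higher. Their medians were then 0.001 and 0.007, beside 0.0095 and 0.0233 over all genes. Kcnq1 differed from control by −0.0030 ± 0.019 after vesicles and 0.026 ± 0.019 after cells, and Cdkn1c by −0.020 ± 0.076 and −0.0050 ± 0.076. Slc22a18, an organic cation transporter gene of the domain, had the lowest unadjusted p after cells, −0.097 ± 0.035 (limma adjusted p = 0.682). It read 6.04 on control array 2 and 5.86 to 5.90 on all others, below the negative controls throughout.

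Other long noncoding RNAs were counted from a list of 40, of which 23 were measured and 8 lay above the negative controls (Carmn, Hand2os1, Lncpint, Mhrt, Norad, Oip5os1, Rmrp and Rpph1). None passed limma's test. After vesicles 6 of 23 were higher with a median of −0.014, close to the −0.012 of all genes, and after cells 10 of 23 with a median of −0.016. Over all genes 38.5% and 43.2% were higher, and the median after cells was −0.0064. With arrays centred on their median 12 and 16 were higher, after quantile normalization 12 and 13, and without control array 1 12 and 13. Centring gave the list medians of 0.007 and 0.013, beside 0.0095 and 0.0233 over all genes. Mhrt, the heart RNA transcribed antisense to the myosin gene Myh7, had the lowest unadjusted p after vesicles. It read 8.57 and 8.52 on the control arrays, 8.41, 8.37 and 8.29 on the vesicle arrays and 8.55, 8.39 and 8.41 on the cell arrays, with 8.37 in the sham heart. The vesicle arrays thus lay below both control arrays, and the sham heart lay among the vesicle arrays. The fitted difference was −0.17 ± 0.037 (limma adjusted p = 0.675), so it did not pass. Mhrt was picked for the lowest unadjusted p of its list, and how many of all genes separate in this way was not counted. How far the probe set separates Mhrt from Myh7 was not tested. Norad, a cytoplasmic RNA that binds Pumilio proteins, differed by 0.057 ± 0.023, and Tug1, which lay just under the negative controls, by 0.081 ± 0.029 (adjusted p = 0.675 for both). After cells the lowest unadjusted p was that of Miat at −0.074 ± 0.025 (adjusted p = 0.682), a signal below the negative controls on every array.

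The remaining lists surround the RNAs that had no probe set of their own. In the Dlk1-Dio3 imprinted locus, which holds Meg3, Rian and Mirg, 32 of 49 listed genes were measured and 1 lay above the negative controls. Of these 10 were higher after vesicles and 12 after cells, with medians of −0.033 and −0.034, and none passed. Over all genes 38.5% and 43.2% were higher, with medians of −0.012 and −0.0064. Without control array 2 the counts of the locus were 14 and 16 of 32 with medians of −0.022 and −0.0010. With arrays centred on their median they were 13 and 15 with medians of −0.012 and −0.0050. Over all genes the medians after centring were 0.0095 and 0.0233. Dlk1, a Notch-related ligand, read 5.82 to 5.95 on all 9 arrays. In the imprinted gene network 14 of 16 were measured, and Dcn, the proteoglycan decorin, stood at 0.093 ± 0.060 after vesicles and 0.13 ± 0.053 against cells (limma adjusted p 0.696 and 0.920). Dcn was lowest on cell array 1 (10.67) and highest in the sham heart (10.95). So was the mean deviation of 9 fibroblast markers (−0.28 and 0.26), but Dcn is itself among these markers. The part of fibroblasts in the value of Dcn was not tested. Igf2, the fetal growth factor beside H19, stood at −0.065 ± 0.047 after vesicles. Medians over the network were 0.020 after vesicles and −0.0030 after cells, and none was called. Neither direction held: the first was −0.0080 without vesicle array 1, and the second 0.040 without cell array 1. With arrays centred on their median the second was 0.027, but centring moved all genes too, from a median of −0.0064 to 0.0233. Of the host genes of small nucleolar RNAs, the family of Gas5 and Snhg1, 15 of 35 were measured and 5 lay above the negative controls. Of the 15, 5 were higher after vesicles and 7 after cells, beside 38.5% and 43.2% of all genes. The medians were −0.0040 in both, and none was called. With arrays centred on their median 11 of the 15 were higher in both comparisons. Their medians were then 0.017 and 0.025, beside 0.0095 and 0.0233 over all genes. Of 18 small nucleolar RNAs hosted by Gas5 and Snhg1, 0 had a probe set with 1 symbol. Near Dnm3os, the scar-related antisense RNA, only Dnm3 was measured, at 0.042 ± 0.033 after vesicles and 0.046 ± 0.033 after cells, which turned to −0.018 and −0.014 without control array 2.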

How the data were processed

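Per the labels' protocols, total RNA of whole frozen hearts was hybridised to Affymetrix whole-transcript arrays. Each probe set has 1 deposited value per array, read as log2 because values run from 1.55 to 14.2. Not given in the sources used here were the log base, background correction, normalization and build behind the authors' values, and the submitters' processing notes name Partek without a role. The deposited values were used as they stand, so a change common to most genes would not show. Arrays have no read depth, and their number (9) limits the precision.

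Of 80202 probe sets, 32750 are in the platform table, 30604 with a single symbol. The 2146 that name several genes were set aside. Symbols were updated through Entrez numbers with RefSeq (22818 matched). Each of 30142 genes was read from its brightest probe set, by the mean of 9 arrays. Malat1, Neat1 and Kcnq1ot1 have 1 such probe set each. Of the genes, 61.1% have the same value on 3 or more arrays, which narrows their spread.

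Differences came from lmFit and eBayes in limma 3.58.1 (R 4.3.3) on the 8 arrays of the 3 injected groups, with a coefficient for each treatment and a fixed block for experiment. That left 4 residual degrees of freedom. Tests were two-sided, with Benjamini-Hochberg adjustment across the 30142 genes and calls at 0.05, and the fit was tested on simulated data. Vesicles, cells and control were compared in 1 fit, so both treatments share the 2 control arrays. The sham array was left out of the fit. A gene was called above the negative controls where its mean passed 7.205, the median over arrays of the 95th percentile among 10553 negative control probe sets. Replicate numbers follow no label and only name arrays, but here they run with the VTS label of the titles.

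The members and lists were chosen with earlier results of these data known. Named genes are the members, the 3 genes of a list with the lowest unadjusted p in a treatment comparison or a selection of them, genes fixed by name, chromosomal neighbours and, for each member, the 2 named genes with the highest Pearson r. Genes shown for single arrays were picked after their values had been seen. Alternatives were median centring, quantile normalization, a filter on dim genes, no experiment term, an intensity trend, no moderation, the sham array among the controls, the mean over probe sets, and leaving out each array. A fit without tied genes (equal on at least 3 arrays), the VTS label as a block (3 residual degrees of freedom) and the interaction of treatment with experiment were added after seeing the data.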

Additional observations from a re-analysis of the deposited data

Results flagged for a closer look

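In 6 comparisons the arrays of experiment 9 moved one way and all those of experiment 1 the other. How many of all genes did so was not counted, so the number is not read as a trait of these RNAs. The experiment 1 difference minus that of experiment 9, on the log2 scale, was −0.288 for Neat1 and 0.133 for Kcnq1ot1 with cells against control, and 0.158 for Kcnq1ot1 with vesicles against control. For vesicles against cells it was 0.065 for Malat1, 0.274 for Neat1 and 0.025 for Kcnq1ot1, whose difference in experiment 9 was only −0.001. The interaction of treatment and experiment, a fit added after seeing the data with 2 residual degrees of freedom, passed for none of them, with limma adjusted p of 0.681 and 0.274 for cells against control, 0.232 for vesicles against control, and 0.686, 0.794 and 0.908 for vesicles against cells. In experiment 1 the vesicles-against-cells gap of Neat1 was 0.035 in VTS1 and 0.427 in VTS2. Experiment 9 has 1 array per treatment and each experiment 1 control array. For Kcnq1ot1 those 2 control arrays held the highest and the lowest value of all 9, at a signal below the negative controls.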

How the results depend on the processing

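The 12 differences of the 3 RNAs were each recomputed in up to 18 alternative fits, which gave 202 estimates. None passed the threshold, the smallest adjusted p being 0.218, and 185 kept their direction. Kcnq1ot1 has no value with dim or tied genes left out. With the VTS label as the block, added after seeing the data, none of the 9 treatment differences turned, and limma called 0 genes in each comparison, with 1665, 1493 and 1443 at an unadjusted p under 0.05. The number of members called was 0 in every fit. Against control, Kcnq1ot1 after cells turned from −0.0015 to 0.028 with arrays centred on their median, 0.033 after quantile normalization and 0.0040 with the sham array among the controls. Centring also moved the median of all genes after cells, from −0.0064 to 0.0233. Malat1 after cells turned from 0.00058 to −0.0048 without the experiment term and −0.013 with the sham array among the controls. Malat1 between experiments turned to 0.0080 after quantile normalization. On leaving out 1 array at a time, Neat1 ran from −0.025 to 0.13 after vesicles, −0.21 to −0.0048 after cells, 0.040 to 0.23 for vesicles against cells and −0.14 to 0.016 between experiments. Kcnq1ot1 ran from −0.066 to 0.080 after vesicles and −0.081 to 0.065 after cells, and Malat1 from −0.022 to 0.019 after cells. Genes called ran from 0 to 823 for vesicles against control and 0 to 901 for cells against control, the high counts coming without control array 1. Least squares without moderation called 4 genes for vesicles against control and 2 between experiments, the sham array among the controls gave 1 for cells against control, and without tied genes 2 were called between experiments. The cause was not tested. Precision is limited by 8 arrays, 2 of them controls, and for Kcnq1ot1 by a signal below the negative controls.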
